A study of Mus musculus with 56 samples.

Results

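RNA levels were compared between mouse N2a cells that received small interfering RNA (siRNA) against Fmr1 and N2a cells that received siRNA against Mbnl1, both together with the control plasmid pcDNA. The groups, called siFmr1 pcDNA and siMbnl1 pcDNA, hold 3 samples each, and these 6 samples are all that the labels put in the groups, out of 56 samples in the series. N2a is an established line of mouse neuroblastoma, a tumour of the sympathetic nerve lineage. The siRNA and the plasmid were transfected together with Lipofectamine 3000 in cells grown with fetal bovine serum, and libraries were made with a directional kit and sequenced on a NovaSeq. The series as a whole studies the loss of FMRP in mouse tissues and N2a cells. The same experiment had a non-targeting siRNA with pcDNA (siNT pcDNA, 3 samples), siFmr1 with a plasmid for FLAG-tagged nuclear MBNL1 (siFmr1 nMBNL1, 3 samples) and siMbnl1 with a plasmid for FLAG-tagged cytosolic MBNL1 (siMbnl1 cMBNL1, 3 samples). All 15 samples therefore carry a siRNA and a plasmid, and none is untransfected. No source used here gives the siRNA sequences, so an effect of the siRNA beyond its target cannot be told apart from the loss of the target. Nothing in the labels says that the samples of a group came from separate cultures, so p-values measure the spread between these samples, which may be technical.

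Fmr1 encodes FMRP, an RNA-binding protein that regulates translation of many mRNAs in neurons and whose loss causes fragile X syndrome. Mbnl1 encodes a muscleblind protein, which binds YGCY sequences in pre-mRNA and sets the use of alternative exons. MBNL1 is known for its sequestration by expanded CUG repeats in myotonic dystrophy, and a shift of it between nucleus and cytoplasm changes which RNAs it can act on. The direct comparison asks which transcripts differ between cells short of one protein and cells short of the other. A positive log2 difference means a higher level with siFmr1, and the scale throughout is log2(normalized count + 1), which understates the difference of low genes. Neither group is an unperturbed reference, so a gene that is higher with siFmr1 can equally be described as lower with siMbnl1. The siNT pcDNA values are given only to show where they lie.

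The 6 samples were alike in the facts that the table gives. Normalized counts summed to between 32265601 and 33273189 per sample, 6610 to 7067 genes were listed at 0, and the 10 highest genes held 3.48% to 3.76% of the sum. Samples correlated at 0.9879 to 0.9883 within siFmr1 pcDNA, at 0.9835 to 0.9866 within siMbnl1 pcDNA and at 0.9702 to 0.9792 between the groups, across genes. The median standard deviation (SD) of a gene between replicates was 0.0963 in siFmr1 pcDNA and 0.113 in siMbnl1 pcDNA on the log2 scale, against 0.236 in siNT pcDNA. Since the values were deposited after normalization, the read depth is unknown.

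Both siRNA targets differed as the labels say. Fmr1 (chromosome X, 68678541 to 68717963 of GRCm38) had 587, 583 and 612 normalized counts in siFmr1 pcDNA and 2908, 3092 and 2764 in siMbnl1 pcDNA. The means were 594 ± 15.3 and 2922 ± 164 (SD, n = 3), a log2 difference of -2.29 ± 0.06 (standard error, SE; limma, adjusted p = 4.21e-12). The siNT pcDNA samples, at 2819, 3604 and 2856, lay near the siMbnl1 pcDNA samples, so Fmr1 RNA was reduced but not removed in the cells labelled siFmr1.

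Mbnl1 (chromosome 3, 60472830 to 60629750) showed the opposite arrangement. It had 4563, 4445 and 4694 normalized counts in siFmr1 pcDNA and 1408, 1538 and 1509 in siMbnl1 pcDNA, a log2 difference of 1.62 ± 0.05 (adjusted p = 3.78e-11). The siNT pcDNA samples, at 4410.4, 5017 and 3759, spread around the siFmr1 pcDNA samples. With the MBNL1 plasmids the order of the groups turned, with 11032, 12133 and 13253 in siFmr1 nMBNL1 and 19178, 23338 and 16769 in siMbnl1 cMBNL1. Reads from the plasmids and from the cells' own gene are not separated in these values.

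The paralogs differed little. Mbnl2, the muscleblind paralog best known from brain, had 3338, 3314 and 3505 in siFmr1 pcDNA and 3798, 3883 and 3706 in siMbnl1 pcDNA. The groups did not overlap, and the log2 difference was -0.17 ± 0.05 (limma, adjusted p = 0.0104). That call was lost without siFmr1 pcDNA replicate 1 (adjusted p = 0.0534) and without siFmr1 pcDNA replicate 2 (adjusted p = 0.0525), and with quantile normalization (adjusted p = 0.0653). Fxr1, a paralog of Fmr1 with the same type of RNA-binding domains, differed by 0.12 ± 0.05 at an adjusted p of 0.0493, just inside the threshold. Fxr1 was outside it when any 1 of the 6 samples but siFmr1 pcDNA replicate 2 was left out, with an adjusted p of up to 0.175. Fxr2, the other paralog of Fmr1, had 3913, 3725 and 3776 and 3661, 3865 and 3967, overlapping groups with a difference of -0.01 ± 0.05 (adjusted p = 0.892). Mbnl3 was close to the bottom of the scale, with 1.13, 0 and 0 against 2.71, 1.21 and 3.07, and was not called (adjusted p = 0.177).

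**Figure D1:**
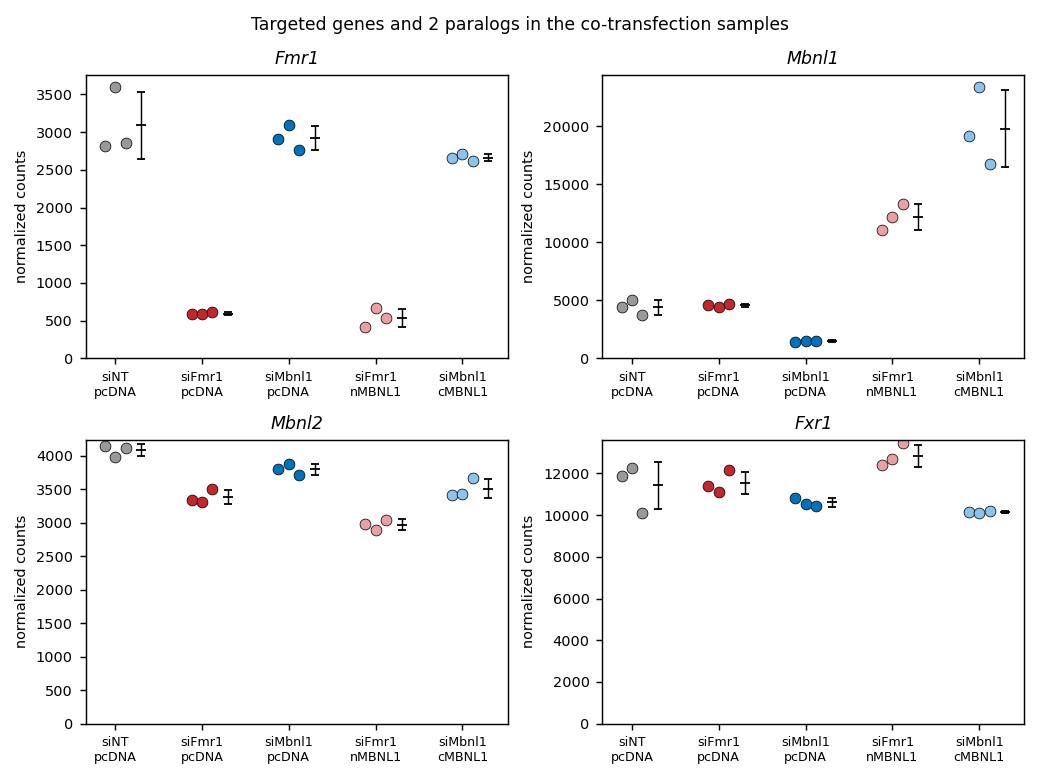
Normalized counts of Fmr1, Mbnl1, Mbnl2 and Fxr1 (y axes from 0) in each sample of the 5 groups (points), with the mean and SD of each group beside them (bar). Fmr1 is low in both siFmr1 groups, and Mbnl1 is low in siMbnl1 pcDNA and highest in the groups with MBNL1 plasmids.

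Across the transcriptome, 16215 genes had a mean of at least 1 normalized count over the 6 samples and were tested with limma. At a Benjamini-Hochberg adjusted p under 0.05, 7665 genes were called (47.3%), of which 3834 were higher with siFmr1 (23.6%) and 3831 lower (23.6%). Groups did not overlap for 8936 genes (55.1%). Most of the differences were small, and 1225 called genes (7.55%) differed by at least 1 on the log2 scale, 796 of them higher with siFmr1 and 429 lower. With 47.3% of genes called, a called gene is common in these data, and the counts of the gene groups below are given with their percent of the genes tested, to be read against 23.6% in each direction and 47.3% in all. In these bulk samples, fewer cells of a type and less RNA per cell cannot be told apart.

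The 12 genes of largest difference on the higher side included secreted, membrane and metabolic proteins. Stra6, the cell-surface receptor for retinol uptake (chromosome 9, 58063788 to 58153996), had 343, 362 and 334 normalized counts in siFmr1 pcDNA and 53.3, 27.8 and 40.9 in siMbnl1 pcDNA. Its log2 difference was 3.11 ± 0.21 (limma, adjusted p = 2.24e-08). The lowest siFmr1 sample was far above the highest siMbnl1 sample, and the siNT pcDNA samples, at 87.4, 105 and 124, lay between the groups. Cpvl, a serine carboxypeptidase (chromosome 6, 53873279 to 53978671), had 147, 116 and 160.4 against 21.9, 23.4 and 20.2, a difference of 2.63 ± 0.23 (adjusted p = 2.49e-07). For this gene the siNT pcDNA samples were below both groups. Adm, which encodes the vasodilator peptide adrenomedullin (chromosome 7, 110627661 to 110629820), had 484, 505 and 456 against 84.7, 67.6 and 98.4 (2.53 ± 0.15, adjusted p = 6.99e-09). Its siNT pcDNA values, 156, 86.7 and 192, reached from within the siMbnl1 range to above it and stayed below every siFmr1 sample.

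Grid2ip, a scaffold protein of the delta 2 glutamate receptor (chromosome 5, 143357338 to 143392152), had 397, 383 and 383 against 68.3, 50.7 and 85.7, a difference of 2.52 ± 0.17. The complement component C7 (chromosome 15, 4988762 to 5063740) had 261, 252 and 227 against 61.4, 33.8 and 55.5, a difference of 2.32 ± 0.21. Neither gene had overlapping groups. Others on this side were Fcgbp (2.74), a mucin-like protein that binds immunoglobulin G, Selenbp1 (2.68), a methanethiol oxidase, and Caly (2.63), a neuronal protein of vesicle endocytosis. They were joined by the collagen chain Col9a2 (2.44), the kinase of pyruvate dehydrogenase Pdk1 (2.25) and the G protein regulator Rgs11 (2.25). The siNT pcDNA samples lay wholly between the groups for 6 of the 12 genes of largest increase, below both for 1, and overlapped a group for 5.

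On the lower side, adhesion and inflammation genes stood among the 12. Vcam1, an adhesion molecule for leukocytes (chromosome 3, 116109949 to 116129688), had 20.4, 34.0 and 36.6 in siFmr1 pcDNA and 272, 285 and 249 in siMbnl1 pcDNA. The log2 difference was -3.14 ± 0.22 (limma, adjusted p = 3.29e-08), with the siNT pcDNA samples between the groups at 111, 107 and 153. Ccl2, a chemokine that attracts monocytes (chromosome 11, 82035571 to 82037453), had 63.5, 78.1 and 81.1 against 389.8, 343 and 468, a difference of -2.41 ± 0.16 (adjusted p = 1.78e-08). Here the siNT pcDNA samples, at 66.4, 59.8 and 65.5, lay at the level of the siFmr1 samples and far under the siMbnl1 samples. Ankrd1, an ankyrin repeat protein known from heart muscle (chromosome 19, 36111961 to 36120099), had 38.6, 35.1 and 41.8 against 220.0, 241 and 216 (-2.52 ± 0.18, adjusted p = 3.28e-08). The siNT pcDNA samples, at 165, 111 and 162, were intermediate.

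Wnt2, a secreted Wnt ligand (chromosome 6, 17988940 to 18030585), had 34.0, 41.7 and 54.9 against 176, 211 and 193, and the groups were apart by -2.15 ± 0.20. Efcab6, an EF-hand protein (chromosome 15, 83866712 to 84065379), had 50.4, 56.4 and 50.1 against 222, 245 and 191, with siNT pcDNA at 41.8, 55.3 and 40.1, next to the siFmr1 samples. The remaining genes were the protease inhibitor Serpinb9g (-3.68), the myosin light chain Myl1 (-2.71), the small GTPase Rab15 (-2.46) and the interferon-induced GTPase Gbp3 (-2.34). Gpnmb (-2.34), a membrane glycoprotein of lysosomes and melanosomes, the atypical cadherin Fat2 (-2.13) and Fmr1 itself completed the 12. Serpinb9g belongs to a family of close copies, and reads may be split among them. The siNT pcDNA samples lay between the groups for 6 of these 12 genes and overlapped a group for the other 6.

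**Figure D2:**
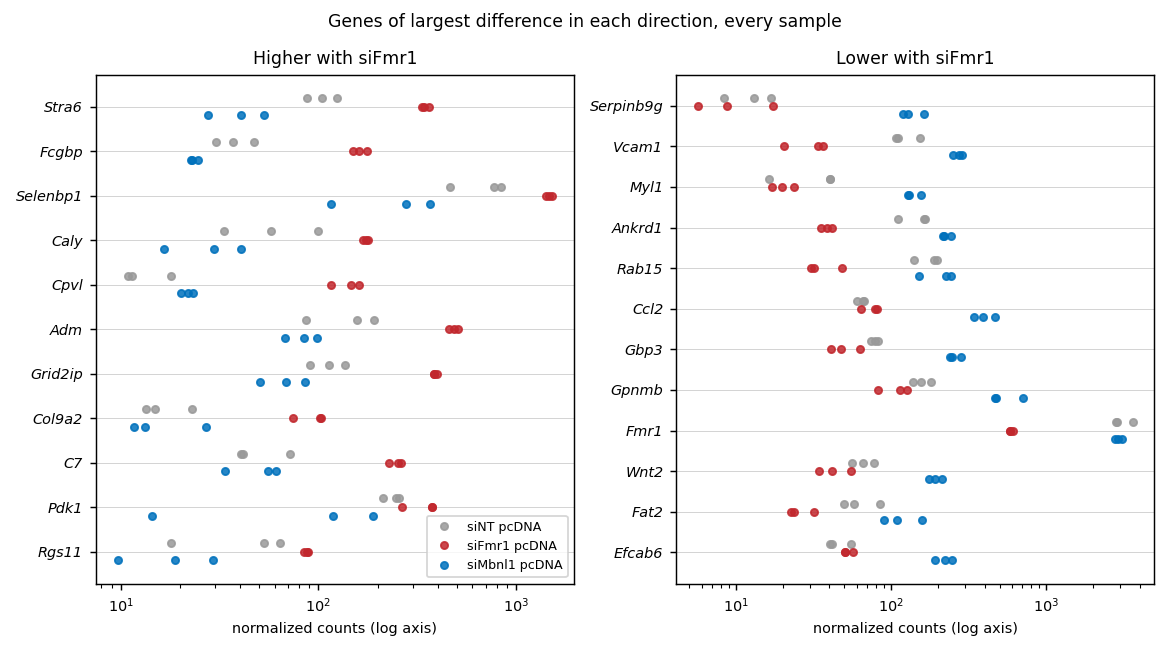
Normalized counts (log axis) of 11 of the 12 genes with the largest increase and the 12 with the largest decrease, with 1 point per sample for siNT pcDNA (grey), siFmr1 pcDNA (red) and siMbnl1 pcDNA (blue). Red and blue points do not overlap for any of these genes, which the choice of genes required, and the grey points lie between them for 5 of the higher and 6 of the lower genes.

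The same pair of siRNAs was compared in 6 samples that share none with the first 6, siFmr1 nMBNL1 against siMbnl1 cMBNL1. The plasmids differ between those groups, so the comparison holds the siRNAs and the plasmids together. Of 16287 genes tested there, 7671 were called (47.1%), with 3835 higher with siFmr1 (23.5%) and 3836 lower (23.6%), and 1116 (6.85%) of those calls differed by at least 1. Groups did not overlap for 8943 genes (54.9%). Among 15797 genes tested in both sets, 4935 were called in both, which is 64.5% of the calls of each set, and 4510 of them (91.4%) had the same sign. The sign was shared by 82.9% of the genes called with pcDNA and by 60.7% of those not called. It was shared by 1157 of 1214 called genes that differed by at least 1 (95.3%). All 24 genes of the 12 largest differences per direction kept their sign and were called, among them Stra6 (1.98), Cpvl (3.02), Vcam1 (-2.31) and Ccl2 (-1.85). Most were smaller than with pcDNA, as for Adm, at 1.13 against 2.53.

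Another 425 genes were called in both sets with opposite signs. Mbnl1 was one, at 1.62 with pcDNA and -0.69 with the MBNL1 plasmids. Rmrp, the RNA component of a mitochondrial and nucleolar RNase, differed by -0.96 with pcDNA and by 1.52 with the MBNL1 plasmids. The heparan sulfate proteoglycan gene Hspg2 differed by 0.54 and -0.59, and the adhesion molecule L1cam by 0.59 and -0.35. Rmrp and L1cam were named after their values had been seen. These differences between the sets were not tested, since siRNA, plasmid and the place of MBNL1 vary together.

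**Figure D3:**
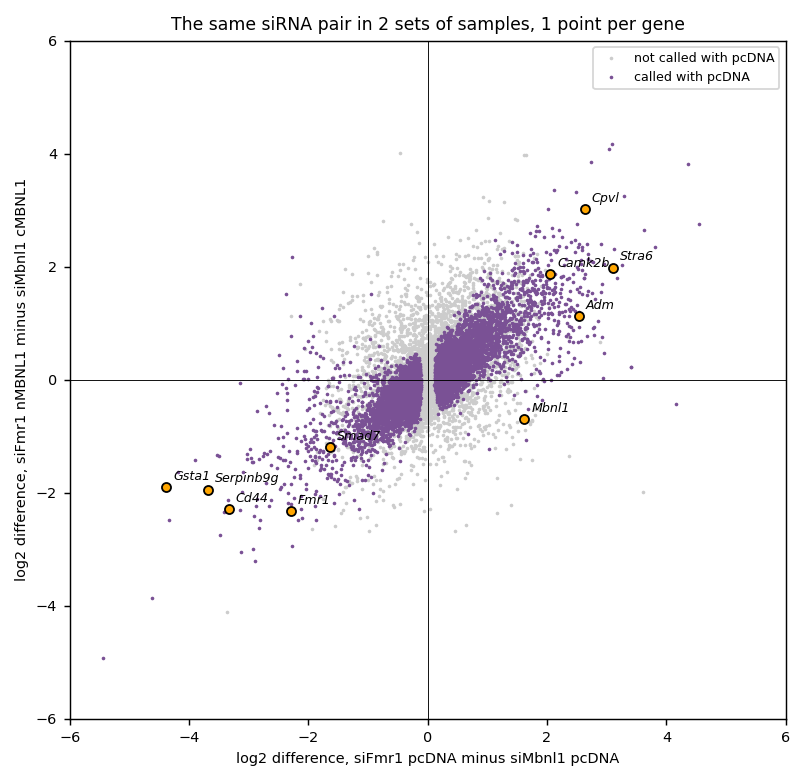
Log2 differences with pcDNA (x axis) and with the MBNL1 plasmids (y axis), 1 point per gene, purple where called with pcDNA and grey where not, with 10 genes marked in orange. The purple points fall mostly where both values have the same sign, and Mbnl1 is positive on the x axis and negative on the y axis.

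Glutathione and NRF2 genes were the list with the largest share on the lower side. NRF2 is a transcription factor that is released from its inhibitor KEAP1 under oxidative stress and switches on enzymes that make and use glutathione. Of 30 genes tested, 23 (76.7%) were lower with siFmr1 and 1 (3.33%) was higher, with a median log2 difference of -0.41, against 23.6% of all tested genes in each direction and a median of 0.01. In the MBNL1-plasmid samples 23 of 30 were lower and 1 was higher, with a median of -0.45, and all 24 genes called with pcDNA had the same sign there. The single higher gene, Gstm2, was not called when siFmr1 pcDNA replicate 1 or 2 or siMbnl1 pcDNA replicate 1 or 2 was left out.

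The enzymes that join glutathione to toxic compounds differed most. Gsta4, a glutathione S-transferase for products of lipid oxidation (chromosome 9, 78182774 to 78209349), had 6.80, 15.4 and 16.6 in siFmr1 pcDNA and 63.0, 82.1 and 77.9 in siMbnl1 pcDNA, a difference of -2.51 ± 0.34 (limma, adjusted p = 1.94e-05). Gsta3 had 5.88, 3.16 and 3.62 against 33.6, 51.6 and 38.9, a difference of -3.04 ± 0.39 (adjusted p = 1.37e-05). In both genes every siFmr1 sample was under every siMbnl1 sample, and the siNT pcDNA samples, at 6.66, 3.99 and 6.24 for Gsta4 and 2.31, 5.78 and 2.17 for Gsta3, lay in or under the siFmr1 range. Gsta1 (2.27, 0 and 18.3 against 84.5, 103 and 64.8) and Gsta2 (5.67, 2.20 and 6.10 against 26.1, 31.4 and 21.9) showed the same order from low values. Gsta1 and Gsta2 are close copies of each other, and their reads may be split between them.

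Hmox1, the enzyme that breaks down heme (chromosome 8, 75093621 to 75100589), had 4855, 4638 and 4426 in siFmr1 pcDNA and 11273, 13014 and 10139 in siMbnl1 pcDNA. The log2 difference was -1.30 ± 0.07 (adjusted p = 5.22e-09), and siNT pcDNA had 6261, 4738 and 6006. Gclc, the catalytic subunit of the first step of glutathione synthesis (chromosome 9, 77754535 to 77794485), had 2004, 2050.1 and 2052 against 3256, 3372 and 3452, a difference of -0.72 ± 0.05, with siNT pcDNA at 2136, 2293 and 2289. For both genes the siNT samples were close to the siFmr1 samples and under every siMbnl1 sample. Slc7a11, the cystine importer that feeds glutathione synthesis (chromosome 3, 49892526 to 50443614), was arranged differently, with 2156, 2241 and 2279 against 4486, 5116 and 4036 and siNT pcDNA at 3971, 4877 and 3913, in or near the siMbnl1 range. Smaller differences were seen in the modifier subunit Gclm (-0.42), the sulfiredoxin Srxn1 (-0.73), the thioredoxin reductase Txnrd1 (-0.39), in Nfe2l2 (-0.36), which encodes NRF2, and in Keap1 (-0.18). Nqo1, a quinone reductase that NRF2 is known to switch on, had overlapping groups and was not called (-0.09 ± 0.07, adjusted p = 0.348).

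Promoters of 3 lower genes are shown because these genes moved together and NRF2 binds a known DNA element. The core searched was TGACNNNGC on both strands, in RefSeq promoter windows of 250 bases before to 50 bases after each start (build GRCm38.p6). Windows of 10 of the 26 list genes with a window held it, or 10 of 32 windows (31.2%), against 12.4% of all 32851 windows. The list was put together as glutathione and NRF2 genes, and every member with a window counts, called or not. The share therefore describes the list, not the genes that were lower. A match describes the letters only, and the motif was chosen after the values had been seen. Called genes were taken in order of size of difference, and the first 3 with a usable match before the start are shown. Gsta1, Gsta4, Gsta2 and Hmox1, which ranked above Gstm5 and Gclm, were passed over. Each line gives 80 bases from before the start, 5′ to 3′ on the strand of the gene, with the match in capitals; in Gclm the match lies on the opposite strand. They are chr1:21240428-21240507 (plus strand), chr3:107895774-107895853 (plus strand) and chr3:122245387-122245466 (plus strand), all of GRCm38.p6.
Gsta3: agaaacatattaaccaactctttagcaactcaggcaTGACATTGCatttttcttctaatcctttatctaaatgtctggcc
Gstm5: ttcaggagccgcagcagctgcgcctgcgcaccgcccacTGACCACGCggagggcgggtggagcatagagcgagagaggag
Gclm: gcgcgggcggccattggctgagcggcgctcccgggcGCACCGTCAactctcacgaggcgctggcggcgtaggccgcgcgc

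Glycolysis and hypoxia genes were the list with the largest share on the higher side. Cells short of oxygen stabilise the HIF transcription factors, which raise glucose uptake, glycolytic enzymes and genes such as Bnip3 that trim mitochondria. With siFmr1, of 33 genes 27 (81.8%) were higher and 1 (3.03%), Hif1a (-0.14), was lower, with a median difference of 0.44. In the MBNL1-plasmid samples 13 were higher and 4 lower, with a median of 0.13, and 19 of the 28 genes called with pcDNA had the same sign.

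Bnip3 (chromosome 7, 138890836 to 138909519) had 8942, 8789 and 9656 in siFmr1 pcDNA and 3468, 1639 and 4957 in siMbnl1 pcDNA, a difference of 1.58 ± 0.25 (limma, adjusted p = 7.93e-05). Ankrd37, an ankyrin repeat protein induced by low oxygen (chromosome 8, 45996902 to 46005707), had 721, 707 and 776 against 298, 174 and 394, a difference of 1.42 ± 0.20 (adjusted p = 2.62e-05). Pdk1, the kinase of pyruvate dehydrogenase (chromosome 2, 71873224 to 71903858), had 375, 265 and 375 against 118, 14.5 and 189, a difference of 2.25 ± 0.59 (adjusted p = 0.00541). In all 3 genes siMbnl1 pcDNA replicate 2 was the lowest of its group by a wide margin. For each of the 3 genes replicate 2 was the lowest of its group in all 5 groups, as for Bnip3 in siNT pcDNA, at 9582, 5639.9 and 8892, and in siMbnl1 cMBNL1, at 2730.2, 1186 and 2938. Across all genes, deviations of same-numbered pcDNA samples correlated at only -0.051 to 0.016. Without siMbnl1 pcDNA replicate 2 the differences were 1.14 for Bnip3, 1.10 for Ankrd37 and 1.15 for Pdk1, and 23 genes of the list were higher and none was called lower. Pdk1 was not called when all 5 groups shared 1 estimate of the spread (adjusted p = 0.0921).

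Ndrg1, a stress-induced protein of the same response (chromosome 15, 66929318 to 66969640), had 221, 161 and 234 against 74.0, 49.5 and 54.7, a difference of 1.78 ± 0.20, with no overlap. The glucose transporters Slc2a1 (0.62) and Slc2a3 (0.76), the glycolytic enzymes Pfkm (0.83), Pgk1 (0.52), Eno2 (1.28) and Ldha (0.32) and the collagen prolyl hydroxylases P4ha1 (0.85) and P4ha2 (0.85) were all higher. Vegfa, the vascular growth factor that HIF is known to raise, was not called, with 8496, 8700.5 and 9427 against 9408, 9283 and 9228 and overlapping groups (-0.07 ± 0.05, adjusted p = 0.263). For Bnip3, 2 of the 3 siNT pcDNA samples reached the siFmr1 level, while for Adm and Ndrg1 they stayed under it.

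The core ACGTG of the hypoxia response element was searched in the same way, for the same reason and also after the values had been seen. It was present in windows of 19 of the 29 list genes with a window, or 22 of 44 windows, against 19.6% of all windows. The list was put together as glycolysis and hypoxia genes, and every member with a window counts, called or not. That share describes the list, not the genes that were higher. The 3 genes shown were chosen as before, and Adm, Pdk1 and Ndrg1, of larger difference, were passed over. The lines give 80 bases from before the start of 3 of the higher genes, on the strand of the gene, with the match in capitals; the capitals of Bnip3 read the same on both strands and hold a match on each. They are chr7:138909572-138909651 (minus strand), chr8:45999851-45999930 (minus strand) and chr11:54100808-54100887 (plus strand) of GRCm38.p6.
Bnip3: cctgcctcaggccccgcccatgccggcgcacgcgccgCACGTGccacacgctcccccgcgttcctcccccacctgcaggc
Ankrd37: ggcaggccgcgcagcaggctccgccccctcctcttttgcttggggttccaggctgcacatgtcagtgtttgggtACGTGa
P4ha2: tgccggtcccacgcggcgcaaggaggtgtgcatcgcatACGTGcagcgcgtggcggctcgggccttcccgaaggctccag

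**Figure D4:**
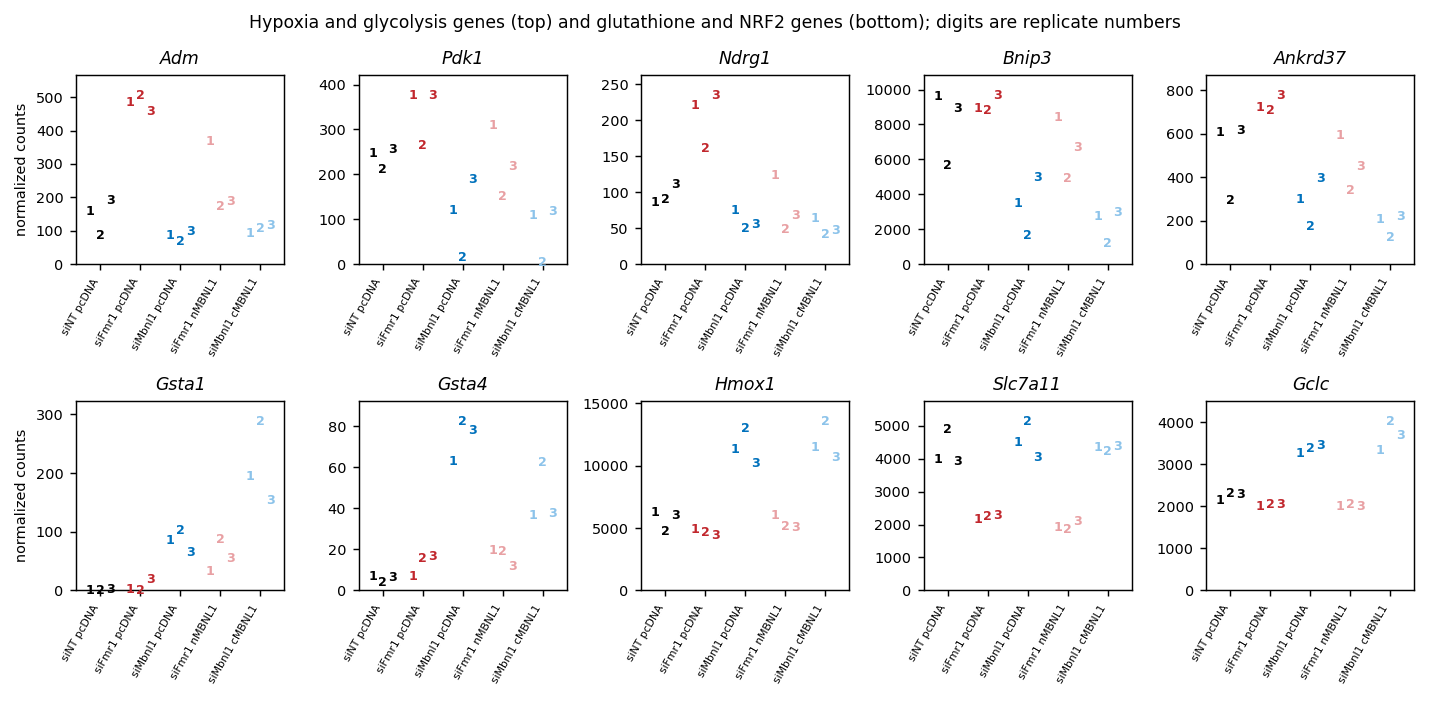
Normalized counts (y axes from 0) of 5 hypoxia and glycolysis genes (top) and 5 glutathione and NRF2 genes (bottom) in the 5 groups, where each digit is a sample, placed at its value and named by its replicate number. The top genes are high in siFmr1 pcDNA, with replicate 2 of the siMbnl1 groups low for Pdk1, Bnip3 and Ankrd37, and the bottom genes are high in both siMbnl1 groups.

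Neuronal and synaptic genes were mostly higher with siFmr1. Of 48 tested, 35 (72.9%) were higher and 1 (2.08%) was lower, with a median difference of 0.41. Camk2b, a subunit of the calcium/calmodulin kinase of synapses (chromosome 11, 5969644 to 6066362), had 274, 235 and 235 in siFmr1 pcDNA and 57.6, 42.4 and 83.1 in siMbnl1 pcDNA, a difference of 2.05 ± 0.21 (limma, adjusted p = 1.48e-06). Gria2, a subunit of AMPA glutamate receptors (chromosome 3, 80681450 to 80802835), had 779.9, 767 and 877 against 329, 297 and 330.4, a difference of 1.34 ± 0.09 (adjusted p = 2.24e-08). Cplx2, a complexin of synaptic vesicle release (chromosome 13, 54371349 to 54383917), had 3623, 3339.8 and 3337 against 1390.2, 1189 and 1582, a difference of 1.32 ± 0.08 (adjusted p = 1.19e-08). None of these groups overlapped, and the siNT pcDNA samples lay between the groups for Camk2b (137, 217 and 145) and at or above the siMbnl1 samples, under every siFmr1 sample, for Gria2 (350.0, 478 and 323) and Cplx2 (1417, 2203 and 1575). The neurofilament gene Nefm (2.37), doublecortin (Dcx, 1.12), the postsynaptic scaffolds Shank3 (1.19) and Dlg4 (0.90) and the vesicle GTPase Rab3a (0.96) were higher too. The exception was the other complexin, Cplx1 (-0.37).

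In the MBNL1-plasmid samples this list was divided, with 16 of 49 higher, 12 lower and a median of 0.10. The leading genes held their direction there, with Camk2b at 1.87, Gria2 at 1.77 and Cplx2 at 1.20. In all, 28 of the 36 genes called with pcDNA had the same sign.

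Markers of the sympathoadrenal neuroblast, the cell of origin of neuroblastoma, check the label of the line. Their summed level was 109741 to 117844 in siFmr1 pcDNA, 76891 to 89919.9 in siMbnl1 pcDNA and 70489.8 to 86546 in siNT pcDNA, over 16 genes. Hand2, a transcription factor that helps define the lineage, was at 14693, 14665 and 14708 in siFmr1 pcDNA and at 11812, 10781 and 11586 in siMbnl1 pcDNA. The lineage markers moved with the neuronal genes, since of the 16 11 (68.8%) were higher with siFmr1 and 1 (6.25%), Gata3 (-0.28), was lower, with a median of 0.42. Dbh, which makes noradrenaline, had 479.7, 545 and 416 against 157, 107 and 155 (1.78 ± 0.15, adjusted p = 2.38e-07), and the siNT pcDNA samples, at 107, 101 and 132, were in or near the siMbnl1 range. The granule protein Chgb (1.13), the receptor tyrosine kinase Ret (0.85) and the oncogene Mycn (0.85) were higher, while Th, which makes the precursor of dopamine, had overlapping groups (-0.06 ± 0.10, adjusted p = 0.654). The count of lower markers was 2 without siFmr1 pcDNA replicate 1 or siMbnl1 pcDNA replicate 2, and 0 with all 5 groups in 1 fit. Under the MBNL1 plasmids 8 of 16 were higher and 2 lower. The part of these markers in the neuronal list was not tested, and 2 of them, Stmn2 and Tubb3, are in both lists.

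Transcripts known as FMRP targets leaned to the higher side with siFmr1. Of 37 tested, 16 (43.2%) were higher and 3 (8.11%) lower, with a median of 0.21. Cyfip2, a partner of FMRP and a member of the WAVE complex (chromosome 11, 46193850 to 46312859), had 1685, 1756 and 1491 in siFmr1 pcDNA and 811, 689.9 and 874 in siMbnl1 pcDNA (1.06 ± 0.09, adjusted p = 1.45e-07). Dlg4, which encodes the scaffold PSD-95 (chromosome 11, 70016942 to 70047522), had 3869, 3939 and 3626 against 2054, 1897 and 2184 (0.90 ± 0.06, adjusted p = 2.01e-08). Neither had overlapping groups, and the siNT pcDNA samples lay between them for Cyfip2 (1005, 1449 and 1268) and between or within the siMbnl1 range for Dlg4 (2121, 3016 and 2651). Agap2 (0.95), a GTPase-activating protein, Arc (0.76), a synaptic immediate early gene, and Map1b (0.21), a microtubule-binding protein, were also higher. With the MBNL1 plasmids the list leaned the other way, with 6 of 36 higher, 20 lower and a median of -0.24, and 11 of the 19 genes called with pcDNA had the same sign. Dlg4 (0.41), Cyfip2 (0.48) and Arc (0.50) were higher in both sets, and Map1b was at -0.17 with the MBNL1 plasmids. Map1b, Camk2a, Dlg4, Shank1, Shank3 and Nlgn2 are also in the neuronal list, and Arc is in the immediate early list. The part of these shared genes in the lean was not tested.

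Splicing regulators differed in both directions. Of 51 tested, 18 (35.3%) were higher, 11 (21.6%) lower and 22 not called, with a median of 0.01, the same as over all genes. Elavl4, a neuronal member of the Hu family of RNA-binding proteins (chromosome 4, 110203722 to 110351909), had 5424, 5296 and 5312 in siFmr1 pcDNA and 2784, 2673 and 3039 in siMbnl1 pcDNA, a difference of 0.92 ± 0.05 (limma, adjusted p = 7.23e-09). Celf5, a CELF protein of the brain (chromosome 10, 81459227 to 81482709), had 1302, 1311 and 1330.1 against 651, 639.9 and 809, a difference of 0.92 ± 0.08 (adjusted p = 4.67e-07). Neither had overlapping groups, and both were called with the MBNL1 plasmids, at 0.91 and 0.44. Esrp2 (1.90), a regulator of epithelial splicing, and Rbm24 (1.12), known from muscle, were higher from low levels, with 54.4, 29.6 and 38.3 against 11.7, 9.66 and 8.48 for Esrp2. Rbfox1, at 1.10, lost its call in 5 of the 6 fits that leave 1 sample out, the exception being siMbnl1 pcDNA replicate 3, with an adjusted p of up to 0.12.

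The CELF family is known for opposing muscleblind proteins at shared exons. Its members Celf3 (0.64), Celf4 (0.31) and Celf6 (0.30) were higher along with Celf5, Celf4 with overlapping groups, while Celf1 was not called (-0.01 ± 0.05, adjusted p = 0.858). On the lower side were Nova1 (-0.45), a neuronal KH-domain regulator, Ptbp2 (-0.36), the neuronal polypyrimidine tract binder, and Hnrnpa1 (-0.88), whose many processed copies make its count uncertain. Ptbp1, the non-neuronal counterpart of Ptbp2, had overlapping groups (-0.02 ± 0.06, adjusted p = 0.814). When all 5 groups shared 1 estimate of the spread, the counts fell to 11 higher and 7 lower.

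Targets of Notch, Wnt and BMP or TGF-beta signalling differed in both directions. Among 30 tested, 6 (20%) were higher and 10 (33.3%) lower, with a median of -0.09, so 53.3% were called, near the 47.3% of all genes. The BMP and TGF-beta pathways act through SMAD proteins, and the ID proteins, SMAD6, SMAD7 and BAMBI are known as their early targets, with the last 3 acting as inhibitors. Smad7 had 1641, 1487 and 1647 in siFmr1 pcDNA and 4727, 5273 and 4869 in siMbnl1 pcDNA, a difference of -1.64 ± 0.06 (limma, adjusted p = 7.91e-11). Id2 (chromosome 12, 25093799 to 25097140) had 419, 318 and 406 against 1346, 1560.1 and 1224, a difference of -1.85 ± 0.11 (adjusted p = 7.23e-09). Bambi had 1194, 1098 and 1204 against 2467, 2386 and 2248, a difference of -1.02 ± 0.06 (adjusted p = 8.32e-09). None of the groups overlapped, and the siNT pcDNA samples lay nearer the siFmr1 samples for Id2 (639, 479 and 724) and Smad7 (1867, 2545 and 2368) and between or within that range for Bambi (1848, 1186 and 1544).

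Smad6 (-0.90), Id1 (-0.69), Id3 (-0.88) and Id4 (-0.88) were lower as well. The other lower genes of the list were Lef1 (-0.52), Tgfb2 (-0.51) and Notch2 (-0.31), while Tgfbi (1.02), Hey2 (0.94), a Notch target, and the Wnt targets Lgr5 (0.75) and Tcf7 (0.73) were higher. All 16 genes called with pcDNA had the same sign with the MBNL1 plasmids, where Smad7 was at -1.19, Id2 at -1.05 and Bambi at -0.45.

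Immediate early and ERK feedback genes differed in both directions. These genes answer growth factor signals within minutes to hours, and the DUSP, SPRY and ETV genes report on ERK kinase activity. Of 30 tested, 14 (46.7%) were lower and 7 (23.3%) higher, with a median of -0.25. Myc (chromosome 15, 61985391 to 61990374) had 6544, 6216 and 5709.7 in siFmr1 pcDNA and 11388, 12349.9 and 11454 in siMbnl1 pcDNA, a difference of -0.93 ± 0.06 (limma, adjusted p = 8.72e-09), and siNT pcDNA had 4807, 4842 and 5550.1, under both groups. Klf4, a zinc finger factor (chromosome 4, 55527143 to 55532466), had 262, 249.9 and 281 against 631, 598 and 660.0, a difference of -1.25 ± 0.09 (adjusted p = 6.11e-08), with siNT pcDNA at 535, 563 and 649, in or near the siMbnl1 range. The position of the siNT samples thus differed between the genes of this list. Lower too were the AP-1 subunits Fosl2 (-0.89), Junb (-0.88) and Jun (-0.60), with the zinc finger factor Egr2 and the phosphatase Dusp1 (-0.77). The higher genes were Arc (0.76) and members of the ERK feedback set, Dusp6 (0.45), Spry1 (0.46), Spry4 (0.24), Dusp4 (0.24), Etv4 (0.35) and Etv5 (0.43). Dusp5 (-0.40), Spry2 (-0.33) and Spred1 (-0.21) of that set were lower. Fosl1, at -1.33, had overlapping groups and lost its call without siFmr1 pcDNA replicate 1 or 3 or siMbnl1 pcDNA replicate 1 or 2 (adjusted p up to 0.189). Its difference was -0.87 without siFmr1 pcDNA replicate 3. In the other set 20 of the 21 called genes had the same sign.

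Interferon response genes were called in both directions. Of 35 tested, 15 (42.9%) were lower and 6 (17.1%) higher, with a median of -0.13. Cxcl10, a chemokine that interferon induces (chromosome 5, 92346638 to 92348889), had 64.6, 73.6 and 94.1 in siFmr1 pcDNA and 225, 196 and 214 in siMbnl1 pcDNA, a difference of -1.45 ± 0.17 (limma, adjusted p = 5.73e-06). Its siNT pcDNA values, 140.2, 125 and 157, lay between the groups. The antiviral genes Oas1a (-1.10), Ifit1 (-1.05), Ifit3 (-1.34) and Rsad2 (-0.96) and the class I light chain B2m (-0.78) were lower, while the exonuclease gene Isg20 (1.05), Mx2 (0.65) and Psmb9 (0.70) were higher. The count of higher genes fell to 3 without siFmr1 pcDNA replicate 1 or 2 or siMbnl1 pcDNA replicate 2. In siFmr1 nMBNL1 against siMbnl1 cMBNL1 12 of 36 were lower and 5 higher, and 20 of the 21 genes called with pcDNA had the same sign.

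Extracellular matrix and adhesion genes differed in both directions. Of 38 tested, 14 (36.8%) were higher and 12 (31.6%) lower, with a median of 0.17. Itga1, an integrin chain that binds collagen (chromosome 13, 114953096 to 115101964), had 2013, 2095 and 1863 in siFmr1 pcDNA and 869, 631 and 1025 in siMbnl1 pcDNA, a difference of 1.27 ± 0.12 (limma, adjusted p = 8.19e-07). Cd44, the receptor for hyaluronan (chromosome 2, 102811141 to 102901665), had 5.70, 1.10 and 10.5 against 45.4, 49.4 and 70.3, a difference of -3.34 ± 0.51 (adjusted p = 7.19e-05). The groups were apart for both genes, in opposite directions. Itga3 (1.18), the basement membrane genes Nid1 (1.21) and Lama5 (1.02) and the collagen chains Col6a1 (1.05) and Col18a1 (0.94) were higher. Mmp2 (-1.81), an enzyme that cuts basement membrane collagen, Cyr61 (-1.08), a matricellular protein, and Timp3 (-1.06), an inhibitor of such enzymes, were lower. Col1a1, at 1.42 from low levels, was not called without siFmr1 pcDNA replicate 1 or 3 (adjusted p up to 0.134) or when all 5 groups shared 1 spread (adjusted p = 0.0696), a setting that left 9 higher genes in the list. In the other set of samples 3 of 40 were higher and 18 lower, and Itga1 (0.68), Itga3 (0.79) and Cd44 (-2.30) kept their signs.

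Fatty acid synthesis genes were mostly higher. This pathway and cholesterol synthesis are driven by SREBP transcription factors, with SREBP1 acting mainly on fatty acids and SREBP2 mainly on cholesterol. Of 15 fatty acid genes tested, 9 (60%) were higher and 2 (13.3%) lower, with a median of 0.32. Srebf1, which encodes SREBP1 (chromosome 11, 60199089 to 60222581), had 8519, 8765 and 6777 in siFmr1 pcDNA and 3865, 3569 and 4446 in siMbnl1 pcDNA, a difference of 1.01 ± 0.09 (limma, adjusted p = 2.87e-07). Scd2, a desaturase that makes oleate (chromosome 19, 44293674 to 44306864), had 58103, 61127 and 53279.8 against 29119, 28329 and 34712, a difference of 0.91 ± 0.07 (adjusted p = 1.42e-07), with siNT pcDNA at 51475, 72476 and 63702. The siMbnl1 samples were the low ones for Scd2, under both other groups. Scd1 (0.86), Thrsp (0.81), Fads2 (0.64) and Acly (0.58) were higher, and Acacb (-0.58), the mitochondrial acetyl-CoA carboxylase, was lower. With the MBNL1 plasmids the list was divided, with 5 higher and 6 lower of 15, although 10 of the 11 genes called with pcDNA had the same sign. Fasn, the fatty acid synthase, was the one that changed sign (0.33 and -0.41).

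Of 23 cholesterol genes tested, 9 (39.1%) were higher and 4 (17.4%) lower, with a median of 0.09. Idi1, an isomerase of the mevalonate pathway, had 2858, 2858 and 3124 in siFmr1 pcDNA and 5002, 5244 and 4749.9 in siMbnl1 pcDNA (-0.76 ± 0.05, limma, adjusted p = 4.03e-08). The groups did not overlap, and siNT pcDNA, at 7060.2, 5782 and 5776, was above both. Dhcr7 (0.60) and Pmvk (0.40) were higher and Msmo1 (-0.40) was lower. The count of lower genes was 2 without siFmr1 pcDNA replicate 1. Dhcr7 and Msmo1 were not called with the MBNL1 plasmids.

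Lysosome and autophagy genes were mostly lower. Lysosomes break down proteins, lipids and sugars with acid hydrolases, many of them under the factor TFEB. Of 29 tested, 17 (58.6%) were lower and 6 (20.7%) higher, with a median of -0.26. Lamp1, the main glycoprotein of the lysosomal membrane (chromosome 8, 13159161 to 13175338), had 23652, 24178 and 23664 in siFmr1 pcDNA and 43273, 47647 and 43645 in siMbnl1 pcDNA, a difference of -0.91 ± 0.05 (limma, adjusted p = 6.9e-09). The siFmr1 samples were the low ones, since siNT pcDNA had 55464, 46148 and 49253, within or above the siMbnl1 range. The cathepsins Ctsl (-0.88) and Ctsb (-0.54), the membrane protein Cd63 (-0.80) and the proton pump subunit Atp6v1h (-0.63) were lower. Tfeb (0.29) and the autophagy kinase Ulk1 (0.53) were higher. The MBNL1-plasmid samples had 21 of 29 lower and 2 higher, with Lamp1 at -0.94, and 21 of the 23 genes called with pcDNA had the same sign.

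Genes of the ATF4 response to amino acid shortage were lower in part. Of 36 tested, 16 (44.4%) were lower and 5 (13.9%) higher, with a median of -0.07. Psph, the last enzyme of serine synthesis (chromosome 5, 129765558 to 129787449), had 3297, 3309 and 3698 in siFmr1 pcDNA and 7249, 6778 and 6395 in siMbnl1 pcDNA, a difference of -0.99 ± 0.06 (limma, adjusted p = 8.56e-09). Nupr1, a small stress-induced nuclear protein (chromosome 7, 126623249 to 126630861), had 2201, 2199.9 and 2437 against 5889.6, 5745 and 4668, a difference of -1.25 ± 0.08 (adjusted p = 9.95e-09). The groups were apart for both, and siNT pcDNA spread widely for Nupr1, at 4779, 1918 and 4171. Cebpb (-0.94), a leucine zipper factor, Cth (-0.80), which makes cysteine, and Atf3 (-0.62) were lower. Atf4 itself differed by -0.17. Among the higher genes, Ass1 (847, 838 and 620.4 against 258, 559 and 519.6, 0.85 ± 0.21), which makes argininosuccinate, was not called when all 5 groups shared 1 spread (adjusted p = 0.665). Its difference was 0.50 without siMbnl1 pcDNA replicate 1. With 1 spread for all 5 groups, 3 genes of the list were higher. In the MBNL1-plasmid samples 29 of 36 were lower and 2 higher, with a median of -0.34.

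Chaperones and degradation factors of the endoplasmic reticulum leaned the same way. Of 20 tested, 12 (60%) were lower and 4 (20%) higher, with a median of -0.16. Dnajb9, a co-chaperone of the unfolded protein response (chromosome 12, 44205559 to 44210326), had 1694, 1474 and 1593 in siFmr1 pcDNA and 2671, 2626 and 2403 in siMbnl1 pcDNA (-0.69 ± 0.06, limma, adjusted p = 4.63e-07). Sel1l (-0.43), Edem1 (-0.39), Dnajc3 (-0.33) and Hspa5 (-0.17) were lower. The ubiquitin ligase Syvn1 was higher (0.49), and it was lower with the MBNL1 plasmids (-0.38), where 14 of 20 were lower and none was called higher. Without siFmr1 pcDNA replicate 1 the higher genes were 2, and with 1 spread for all 5 groups the lower genes were 7 and the higher genes 1.

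Of 22 genes known as p53 targets, 10 (45.5%) were lower and 2 (9.09%) higher, with a median of -0.26. Gadd45a, a DNA damage response gene (chromosome 6, 67035096 to 67037457), had 341, 327 and 365 in siFmr1 pcDNA and 838, 1006 and 833 in siMbnl1 pcDNA (-1.37 ± 0.09, limma, adjusted p = 2.53e-08). Its siNT pcDNA samples, at 712, 481 and 656, lay between the groups. Fas (-1.54), a death receptor, Phlda3 (-0.86), Mdm2 (-0.45), the ligase that removes p53, and Cdkn1a (-0.26), the cell cycle inhibitor p21, were lower, as was Trp53 itself (-0.27). Btg2 was higher (0.49), and the other higher gene, Zmat3 (0.17), was not called when siFmr1 pcDNA replicate 1 or 2 or siMbnl1 pcDNA replicate 1 or 2 was left out. Among the MBNL1-plasmid samples 10 of 21 were lower and 1 higher.

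Cell cycle and replication genes differed in both directions. Of 47 tested, 15 (31.9%) were lower and 9 (19.1%) higher, with a median of -0.05, so 51.1% were called, near the 47.3% of all genes. Pcna, the sliding clamp of replication (chromosome 2, 132249162 to 132253314), had 5509.8, 5665 and 5696 in siFmr1 pcDNA and 7988, 7446 and 7054 in siMbnl1 pcDNA (-0.41 ± 0.05, limma, adjusted p = 9.68e-06). Gins1 (-0.79), Tyms (-0.54), Mcm4 (-0.36) and Mcm6 (-0.35), which serve replication or nucleotide supply, were lower, while Pold1 (0.45), a polymerase subunit, and the mitosis genes Plk1 (0.38) and Top2a (0.27) were higher. Pcna, Tyms and Pold1 were not called with the MBNL1 plasmids. Cdkn1c, the inhibitor p57, was higher from low levels, with 27.4, 31.3 and 35.9 against 0, 8.50 and 3.10 (3.25 ± 0.64, adjusted p = 0.000606). With 1 spread for all 5 groups, 9 genes were lower and 5 higher. Of 18 histone genes tested, 27.8% were called, under the share of all genes. The higher ones were 3, namely Hist1h1c (0.54), H3f3b (0.28) and H1f0 (0.24), and 2 were lower, H2afz (-0.26) and Hist2h2be (-0.40). Hist2h2be had overlapping groups and lost its call in 4 of the 6 fits that leave 1 sample out, those without siFmr1 pcDNA replicate 1 or 2 or siMbnl1 pcDNA replicate 1 or 2 (adjusted p up to 0.13). H2afz, at 0.19 with the MBNL1 plasmids, was not called when all 5 groups shared 1 spread (adjusted p = 0.146).

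Ribosomal protein genes gave opposite counts in the 2 sets of samples. With pcDNA, among 81 tested, 31 (38.3%) were lower and 2 (2.47%) higher, with a median of -0.13, and 74 of the 81 differences were negative. With the MBNL1 plasmids 73 of 81 were higher and none was called lower, with a median of 0.31. Rpl30, a protein of the large subunit (chromosome 15, 34440505 to 34443640), had 2358, 2240.3 and 2288 in siFmr1 pcDNA and 3121, 3268 and 2919 in siMbnl1 pcDNA, a difference of -0.43 ± 0.05 (limma, adjusted p = 1.06e-05). Its values were 2381, 2745 and 2653 in siFmr1 nMBNL1 and 2581, 2675 and 2477 in siMbnl1 cMBNL1, which overlap. Rpl22l1 (-0.53), Rps12 (-0.47) and Rps21 (-0.34) were lower with pcDNA. The siNT pcDNA samples ranged widely, at 2687, 1263 and 1979 for Rpl30, with replicate 2 the lowest.

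The pcDNA count of lower ribosomal genes depended on single samples. It was 10 without siFmr1 pcDNA replicate 1, 14 without siFmr1 pcDNA replicate 2 and 13 without siMbnl1 pcDNA replicate 1, and none was called when all 5 groups shared 1 spread (Rpl30 then had an adjusted p of 0.0597). With that fit Rpl22l1 (adjusted p = 0.0655), Rps12 (0.156) and Rps21 (0.404) were not called either. Rps27 was the largest difference of the list and rests on single samples, with 400.3, 125 and 1271 in siFmr1 pcDNA and 172, 161 and 121 in siMbnl1 pcDNA, overlapping groups and an adjusted p of 0.0332. It was called in only 1 of the 6 fits that leave 1 sample out, the fit without siFmr1 pcDNA replicate 2, and its adjusted p was up to 0.17 in the others. Without siFmr1 pcDNA replicate 3 its difference was 0.58. Ribosomal protein genes have many processed copies, so reads may be split among copies.

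Nuclear genes of oxidative phosphorylation were called near the share of all genes with pcDNA. Of 54 tested, 10 (18.5%) were higher and 15 (27.8%) lower, with a median of -0.03. With the MBNL1 plasmids 39 of 54 were higher and none lower, with a median of 0.26. Uqcrfs1, the iron-sulfur protein of complex III (chromosome 13, 30540308 to 30545362), was higher with pcDNA, with 5172, 5305 and 5411 against 4370.2, 4295 and 4268 (0.30 ± 0.05, limma, adjusted p = 6.92e-05). The small subunits Uqcrq (-0.29), Cox6b1 (-0.28) and Cox7c (-0.26) were lower, and these 3 were not called when all 5 groups shared 1 spread (adjusted p = 0.366, 0.406 and 0.561). The lower genes were 8 without siFmr1 pcDNA replicate 1, 8 without siMbnl1 pcDNA replicate 1, 9 with quantile normalization and none with 1 spread for all 5 groups, which left 5 higher.

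Transcript length moved with the difference in 1 set of samples. Genes were divided into 5 classes of like size by their longest annotated transcript, available for 95.9% of the tested genes. With the MBNL1 plasmids the median difference was 0.17 in the class of shortest genes (174 to 1810 bases) and -0.11 in the class of longest genes (5079 bases and more), with 0.077, 0.02 and -0.015 in between. With pcDNA the 5 medians lay between -0.024 and 0.028. Ribosomal and oxidative phosphorylation genes are short. The part of length in their counts was not tested.

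**Figure D5:**
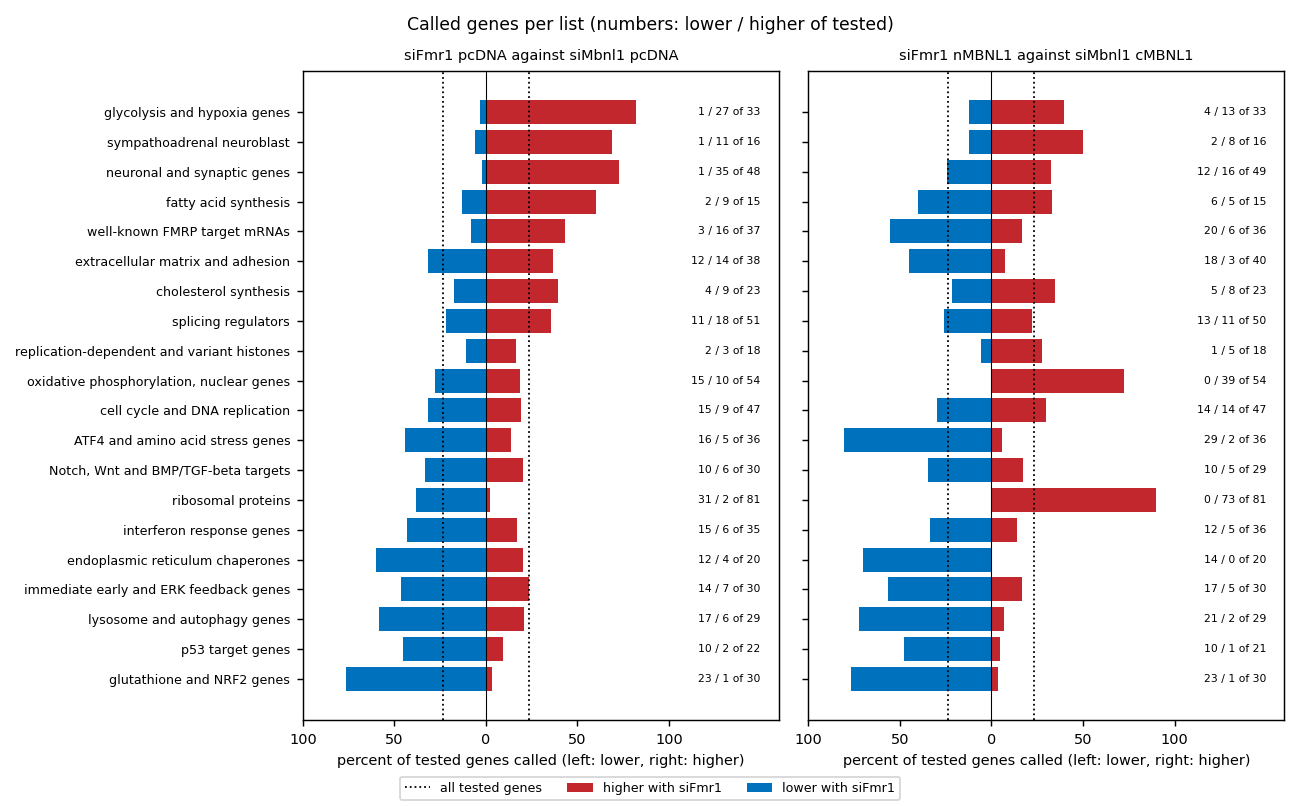
Percent of the tested genes of each list called higher (red, right) or lower (blue, left) with siFmr1, with pcDNA (left panel) and with the MBNL1 plasmids (right panel); dotted lines mark the share over all tested genes, and the numbers give lower and higher calls of the tested genes. Glutathione and NRF2 genes extend to the left in both panels, glycolysis and hypoxia genes to the right in the first, and ribosomal protein genes turn from left to right between the panels.

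Markers of other cell types were summed per sample, and the ranges of the 2 groups overlapped for the fibroblast list and for none of the others. Fibroblast markers summed to 3988 to 5032 in siFmr1 pcDNA and 4173 to 5549 in siMbnl1 pcDNA, with 1 of 5 tested genes higher and 1 lower. The higher call was lost without siFmr1 pcDNA replicate 1 or 3 and with all 5 groups in 1 fit, and the lower one with a minimum mean of 10. Microglia and macrophage markers summed to 5.07 to 16.2 and to 29.8 to 60.2, with 1 of 5 lower, Cd68 (-2.37), a lysosomal protein, and 2 lower without siMbnl1 pcDNA replicate 1. Astrocyte markers summed to 181 to 193 and to 307 to 391, with 1 of 6 higher and 1 lower. The higher call was lost without siFmr1 pcDNA replicate 3 or siMbnl1 pcDNA replicate 1 or 2, and with a minimum mean of 10. Oligodendrocyte markers, with Mag listed at 0 in all 6 samples, summed to 1663 to 1783 and to 1153 to 1298, with 3 of 5 higher. Endothelial markers summed to 985 to 1042 and to 424 to 501, with 3 of 4 higher, among them Pecam1 (456, 398 and 437 against 209, 228 and 206). Kdr, the endothelial receptor for vascular growth factor, was at or near 0 in all 6 samples. Epithelial markers summed to 193 to 242 and to 129 to 139, with 1 of 6 higher. The lists hold few tested genes. Called higher were 20% of fibroblast, 16.7% of astrocyte, 60% of oligodendrocyte, 75% of endothelial and 16.7% of epithelial markers tested. Called lower were 20% of fibroblast, 20% of microglia and macrophage and 16.7% of astrocyte markers tested. Of all tested genes, 23.6% were called in each direction. The part of such genes in the results above was not tested.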

How the data were processed

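RNA-seq of N2a cells was analysed from 1 gene table of 15 samples in 5 groups of 3. Its signal values, deposited by the authors as normalized counts per the file name and labels, are not whole, and whole reads could not be recovered from their steps, so no count model was run and the depth of each sample is unknown. Precision therefore rests on the spread between 3 samples a group. The scaling method and the counting, including its use of strand, are not given in the labels or headers. The submitters' processing notes name CASAVA, FastQC 0.11.8, Trimmomatic 0.39, Bowtie2 2.3.5, STAR 2.6.1, RSEM 1.3.1, DESeq2 1.16.1 and the builds GRCm38 and mm10, without a role for each.

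Of 23091 table rows, 4 with repeated date-like symbols were left out. limma 3.58.1 in R 4.3.3 (lmFit, eBayes with a trend) was fitted to log2(value + 1) of the 6 samples compared, keeping genes whose mean reached 1, two-sided, and every adjusted p is Benjamini-Hochberg over all tested genes, called under 0.05. The fit was tested on simulated data. Figures were drawn with matplotlib 3.10.9. Gene positions are GRCm38 and 1-based.

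Named genes were the 2 siRNA targets and their paralogs, the 12 called genes of largest difference in each direction (no overlap, mean of at least 50, no predicted genes or pseudogenes), and up to 5 called members of each list with a mean of at least 10. Some of the genes this rule names are not reported here. Other list members were named for their role after their values had been seen. The comparison and the gene lists were chosen with earlier results of these data known. Alternatives were the pseudocount, the filter, quantile normalization, all 5 groups in 1 fit, a replicate block and leaving out each sample. The splicing tables and the tables of other samples were not used here.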

Additional observations from a re-analysis of the deposited data

How the results depend on the processing

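Across the alternatives without a minimum log2 difference, the count of called genes with pcDNA (7665) lay between 5751 and 7672. The lowest count came with all 5 groups in 1 fit and the highest with a pseudocount of 10. Leaving out 1 sample gave 6465 (without siFmr1 pcDNA replicate 1) to 7484 (without siMbnl1 pcDNA replicate 3), and in the MBNL1-plasmid samples, with 7671 called, 6419 to 7466. A minimum log2 difference of 1 left 1225 and 1116 called genes. Of the 121 named genes 119 were called, and 112 to 117 when 1 sample was left out. No named gene changed sign while called, and 15 lost their call with all 5 groups in 1 fit, a fit that includes the more variable siNT pcDNA samples.

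The replicate numbers are shared between the groups. Deviations of same-numbered samples correlated at -0.051 to 0.016 across genes with pcDNA and at -0.0023 to 0.016 with the MBNL1 plasmids. Correlations over all genes cannot show whether a smaller set of genes shares a difference by number. For Bnip3, Ankrd37 and Pdk1, replicate 2 was the lowest of its group in all 5 groups. With the replicate block 7044 genes were called with pcDNA and 7726 with the MBNL1 plasmids. Among pcDNA samples 1 of 6 correlated best with its own number, and 3 of 6 in the other set.

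Read depth is unknown, so no counting error can be given, and low genes are the least certain. Each group holds 3 samples, the siRNA sequences are unknown, and siRNA and plasmid vary together in the second set.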
